A study of Mus musculus with 2 samples.

Results

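The Kruppel-like factors described here were 10 genes, Klf2, Klf3, Klf4, Klf5, Klf6, Klf9, Klf10, Klf12, Klf13 and Klf15, taken by gene symbol from a count table of 45777 mouse genes. Every member had reads in both libraries. The study sequenced RNA from whole kidneys of mice in which Inmt was conditionally deleted in the proximal tubule (CKO, 1 library) and of control mice (1 library), and asked what loss of this small-amine methyltransferase does in the kidney. All mice were untreated, ate standard chow and were kept under a light and dark cycle. The Cre driver, the strain, the age, the number of animals behind each library and the time of day of collection are not given in the sources used here. With 1 library per group, no difference below has a replicate check, and none has a p-value.

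Kruppel-like factors are transcription factors that bind GC-rich and CACCC-type DNA through a conserved run of zinc fingers at the C-terminal end of the protein. They share that DNA-binding end and differ in the rest of the protein, which recruits different partners. Klf2, Klf4, Klf5 and Klf6 belong to a group known mainly for activating transcription through acetyltransferases. Klf3 and Klf12 bind the corepressor CtBP, and Klf9, Klf10 and Klf13 bind the corepressor Sin3A, while Klf15 stands apart from these groups. In the kidney, Klf15 and Klf9 are known as targets of glucocorticoids and of the circadian clock, Klf2 and Klf4 as endothelial regulators, Klf5 as a factor of the collecting duct, and Klf6 and Klf10 as genes induced by injury and by TGF-beta.

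Upstream sequences are shown for 3 members, Klf4 and Klf6, which were among the members at least 2-fold higher in the CKO library, and Klf15, the member with the lowest ratio, because they were the 3 of 8 member windows that held the E-box CACGTG. This letter string is bound by the clock proteins CLOCK and BMAL1 and by other helix-loop-helix factors. The sequences are from RefSeq (GRCm38.p6), 250 bases before an annotated start site, 5′ to 3′ on the gene's strand, with E-box matches in capitals. The Klf4 window is chr4:55532476-55532725 (minus strand), the Klf6 window chr13:5861239-5861488 (plus strand) and the Klf15 window chr6:90462326-90462575 (plus strand).
Klf4: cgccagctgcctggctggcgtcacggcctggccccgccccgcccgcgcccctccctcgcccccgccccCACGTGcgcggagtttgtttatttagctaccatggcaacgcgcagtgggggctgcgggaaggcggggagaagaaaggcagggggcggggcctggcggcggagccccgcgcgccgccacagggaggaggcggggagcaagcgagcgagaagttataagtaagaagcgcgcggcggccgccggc
Klf6: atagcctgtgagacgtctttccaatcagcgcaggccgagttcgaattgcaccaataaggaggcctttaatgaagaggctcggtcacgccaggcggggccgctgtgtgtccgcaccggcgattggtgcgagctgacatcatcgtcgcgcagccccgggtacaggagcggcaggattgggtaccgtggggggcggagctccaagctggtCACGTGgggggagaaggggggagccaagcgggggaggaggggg
Klf15: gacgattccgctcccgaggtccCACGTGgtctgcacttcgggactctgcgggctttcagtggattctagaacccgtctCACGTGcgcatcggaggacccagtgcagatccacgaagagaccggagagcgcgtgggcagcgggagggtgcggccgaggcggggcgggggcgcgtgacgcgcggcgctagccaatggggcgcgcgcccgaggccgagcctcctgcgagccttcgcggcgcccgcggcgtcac
Klf4 held 1 E-box, at bases -182 to -177 from the start site, and Klf6 held 1, at -43 to -38. Klf15 held 3, at -228 to -223, at -172 to -167 and, across the start site and therefore not capitalised, from -3 into the transcript. The Klf15 start site used by RefSeq here lies 1533 bases inside the annotated gene span, so other Klf15 starts have other upstream sequence. The Klf12 start site, searched with the same motifs, lies 136095 bases inside its gene span, and the bases just after the Klf4 start site were not found in a GENCODE transcript of Klf4.

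The search used 300-base windows, of 250 bases before and 50 after the start site, on both strands, and 8 members had a window in the table, all but Klf5 and Klf10. Among all 32851 windows of that length, 7.15% held an E-box, and among the 9690 windows with at least 60% G and C, 10.8% did. Klf3 had the highest share of G and C among the 8 members, at 76.7%, Klf4 had 74.3%, Klf15 73.3%, Klf6 63.0% and Klf12 the lowest at 45.7%, against a median of 52.7% over all windows. The GC box GGGCGG was present in 6 of the 8, up to 6 times in Klf3, against 35.7% of all windows and 80.6% of the windows with at least 60% G and C, which 7 of the 8 were. In Klf4, 2 of the 4 GC boxes overlapped by 1 base, and no E-box overlapped a GC box. The CACCC-type string CCACACCC occurred in 1 of the 8, at the internal start of Klf12, and in 3.56% of all windows. The cAMP element TGACGTCA, the D-box TTATGTAA, the glucocorticoid response element and the CArG box of serum response factor had no match in any of the 8 windows, against 1.79%, 0.938%, 0.475% and 1.63% of all windows. These matches describe letters in short windows and do not show binding.

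The CKO library held 38136616 counted reads and the control library 33618076. Levels are given as CPM, read counts scaled to library size (counts per 1e6 reads) by TMM in edgeR, with exact Poisson 95% intervals. Ratios are CKO over control, with exact Clopper-Pearson 95% intervals. Both kinds of interval cover counting error only, so they compare these libraries and not the conditions. Inmt had 124 CPM in the CKO library and 587 CPM in the control library, 4.73-fold lower. The proximal tubule list of 8 markers was present in both libraries with no marker at 0, and its summed level was 9994 CPM in the CKO library and 17054 CPM in the control library. In whole kidney RNA, fewer cells of a type and less RNA per cell cannot be told apart.

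Of the 10 members, 4 were at least 2-fold higher in the CKO library on the scale of log2(CPM + 0.5), and none (0) was at least 2-fold lower. They were Klf5, Klf6, Klf4 and Klf10. A gene was called expressed at 1 CPM in at least 1 library, and among the 15129 such genes 10.3% were at least 2-fold higher and 1.66% at least 2-fold lower. Among the 13635 expressed genes within the control range of all 10 members, from 0.830 to 229 CPM, 7.58% were at least 2-fold higher. The members other than Klf5 had control levels from 7.51 to 229 CPM, and 3 of them were at least 2-fold higher. Among the 9503 expressed genes within that narrower range, 3.06% were at least 2-fold higher. All 10 members passed the expression minimum, but Klf5 passed it through the CKO library only. The median log2 ratio of the members was 0.34, against 0.01 for all expressed genes, with a range from -0.61 for Klf15 to 1.79 for Klf5.

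**Figure D1:**
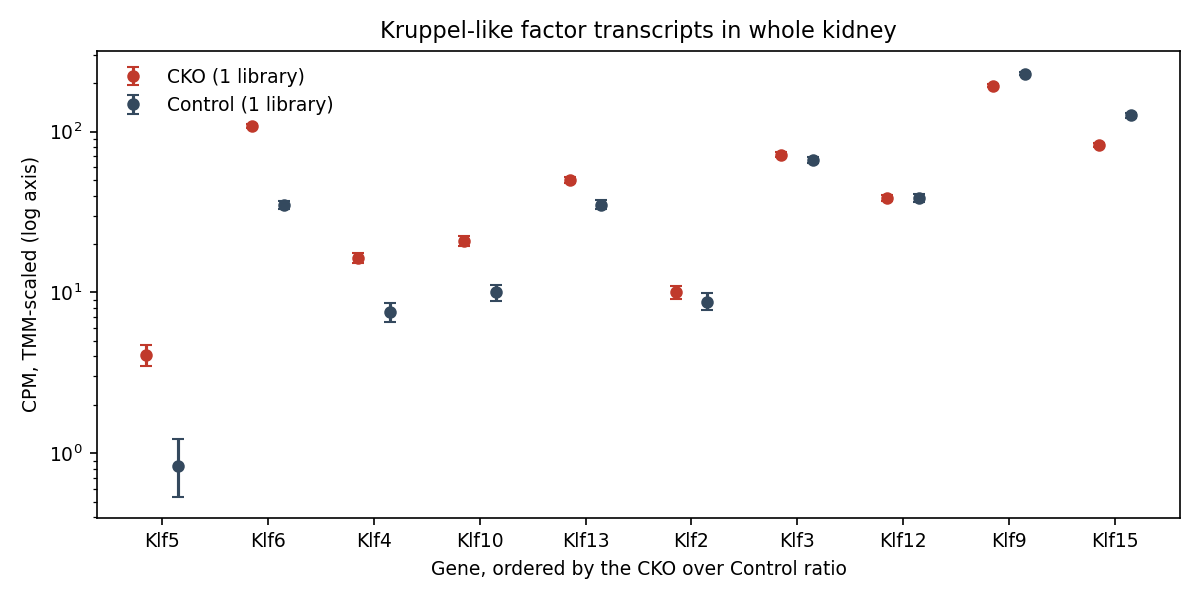
TMM-scaled CPM (log axis) of the 10 members in the CKO library (red, left of each pair) and the control library (dark, right), 1 library each, with exact Poisson 95% intervals of counting error. Klf5, Klf6, Klf4 and Klf10 stand well above their control values, Klf2, Klf3 and Klf12 lie close to theirs, and Klf9 and Klf15 lie below theirs.

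Among the activating group, Klf6 differed most in absolute level. Klf6 (NCBI gene 23849, chromosome 13, 5861489 to 5870393, GRCm38) had 4590 reads or 108 CPM (104.7 to 111) in the CKO library, against 1055 reads or 35.04 CPM (33.0 to 37.2) in the control library. The ratio was 3.08 (2.88 to 3.29), and 96.0% of expressed genes had a lower log2 ratio than its 1.61. Klf6 is an immediate early gene of injured epithelium that was first described as a core promoter binding factor. It was the sole member past 100 CPM in the CKO library that was not already past 100 CPM in the control library.

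Klf5 had the highest ratio and the lowest level. Klf5 (gene 12224, chromosome 14, 99298691 to 99313412), which drives proliferation in crypt and other epithelia, had 174 reads or 4.09 CPM (3.50 to 4.74) in the CKO library and 25 reads or 0.830 CPM (0.537 to 1.23) in the control library. The plain ratio was 4.92 (3.23 to 7.81), and the log2 ratio on the CPM + 0.5 scale, which understates low genes, was 1.79. The control value rests on 25 reads, and the interval of the ratio is the widest of the 10.

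Klf4, a factor of epithelial differentiation and of endothelium that is also one of the reprogramming factors, had 697 reads or 16.4 CPM (15.2 to 17.6) in the CKO library. In the control library it had 226 reads or 7.51 CPM (6.56 to 8.55). Its ratio was 2.18 (1.87 to 2.54), an interval that reaches below 2. Klf4 (gene 16600) lies on chromosome 4 at 55527137 to 55532475. Its close relative Klf2, the flow-responsive factor of endothelium that also keeps T cells quiescent, had 426 reads or 10.005 CPM (9.08 to 11.001) in the CKO library and 264 reads or 8.77 CPM (7.74 to 9.89) in the control library. The Klf2 ratio was 1.14 (0.976 to 1.34), within counting error of 1.

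The ratio of Klf4 divided by that of Klf2 needs no library scaling, and was 1.91 (Wald 95% interval 1.54 to 2.37). The 2 endothelial regulators therefore differed by more than counting error between these libraries. Klf6 set against Klf7, a near relative outside the 10 with 28.6 CPM in the CKO library and 17.7 CPM in the control library, gave 1.91 (1.69 to 2.15).

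**Figure D2:**
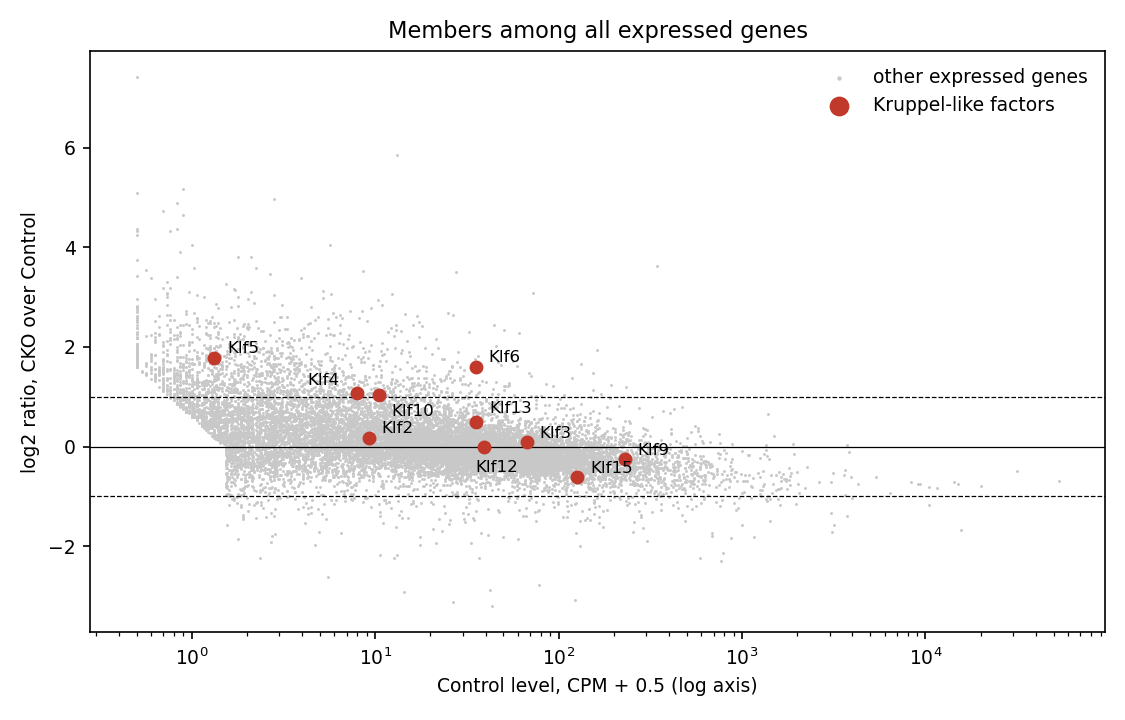
Log2 ratio of CKO over control against the control level (CPM + 0.5, log axis) for all expressed genes (grey) and the 10 members (red), with dashed lines at 2-fold. Klf6 lies apart from most genes of its control level, Klf5 sits where many low genes are high in the CKO library, and no member lies below the lower line.

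The CtBP-binding members differed little between the libraries. Klf3 (gene 16599), a repressor known from erythroid and fat cells, had 3046 reads or 71.5 CPM (69.0 to 74.1) in the CKO library and 2012 reads or 66.8 CPM (63.9 to 69.8) in the control library, a ratio of 1.07 (1.01 to 1.13). Klf12 (gene 16597), which was described as a repressor of the AP-2 alpha gene, had 38.66 CPM (36.8 to 40.6) in the CKO library and 38.69 CPM (36.5 to 40.98) in the control library, a ratio of 0.999 (0.926 to 1.08). Klf8, the remaining CtBP-binding gene of the family and not among the 10, had 64 reads in the CKO library and 12 in the control library, 3.77-fold higher (2.02 to 7.68), at 1.503 CPM (CKO) and 0.399 CPM (control).

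Klf5 and Klf12 lie next to each other on chromosome 14, 553 kb apart, with no other expressed protein-coding gene between them, and the ratio of Klf5 was 4.93 times that of Klf12 (3.22 to 7.54). Around the 4 members at least 2-fold higher, none (0) of the 8 nearest expressed protein-coding neighbours was past 2-fold in either direction. Their log2 ratios ran from -0.45 for Akr1e1 next to Klf6 to 0.36 for Pibf1 next to Klf5. Over all expressed genes, 10.3% were at least 2-fold higher and 1.66% at least 2-fold lower. Around the other members, Tlr1 next to Klf3 (1.51), Trpm3 next to Klf9 (1.04) and Klf5 next to Klf12 were past 2-fold, and the remaining neighbours were not. Gene models that overlap a member numbered 8, at 5 members, and the largest count of any of them in a library was 43 reads. The libraries were made with a stranded kit, and whether the counting used the strand is not given in the sources used here.

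The Sin3A-binding members spread over both directions. Klf10 (gene 21847, chromosome 15, 38291464 to 38300711), first found as a TGF-beta inducible early gene, had 890 reads or 20.9 CPM (19.5 to 22.3) in the CKO library and 301 reads or 9.997 CPM (8.90 to 11.2) in the control library. Its ratio was 2.09 (1.83 to 2.39). Klf13 (gene 50794), a factor of T cell chemokine expression, had 49.9 CPM (47.8 to 52.1) in the CKO library and 35.1 CPM (33.0 to 37.3) in the control library, a ratio of 1.42 (1.32 to 1.53). Klf9 (gene 16601, chromosome 19, 23141226 to 23168129), a target of glucocorticoid and thyroid hormone, was the most abundant member, with 8189 reads or 192 CPM (188 to 197) in the CKO library and 6901 reads or 229 CPM (224 to 235) in the control library. The Klf9 ratio was 0.839 (0.813 to 0.867), and its direction depended on the scaling: the log2 ratio was -0.25 with TMM, 0.06 with total counts and 0.17 with the authors' TPM values.

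Set against Klf9, Klf10 was 2.49 times higher (2.18 to 2.85) and Klf13 1.69 times higher (1.56 to 1.83), again without any library scaling. Klf11, the closest relative of Klf10 and not among the 10, had 16.4 CPM (696 reads) in the CKO library and 5.55 CPM (167 reads) in the control library, a ratio of 2.95 (2.49 to 3.51). That ratio was 1.41 times that of Klf10 (1.14 to 1.75).

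Klf15 had the lowest ratio. Klf15 (gene 66277, chromosome 6, 90461043 to 90491803), a regulator of amino acid breakdown and gluconeogenesis that is also known to protect podocytes, had 3512 reads or 82.5 CPM (79.8 to 85.3) in the CKO library and 3796 reads or 126 CPM (122 to 130) in the control library. It was 34.6% lower, a ratio of 0.654 (0.625 to 0.685), and 6.23% of expressed genes had a lower log2 ratio than its -0.61. Klf15 stayed below 0 under each other scaling, from -0.63 with DESeq2 size factors to -0.20 with the authors' TPM values. On that TPM scale all expressed genes had a median of 0.40. Changes of pseudocount or expression minimum could not turn its sign, and the authors' normalized table closely repeats the TMM scaling. The ratio of Klf6 was 4.70 times that of Klf15 (4.34 to 5.10).

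**Figure D3:**
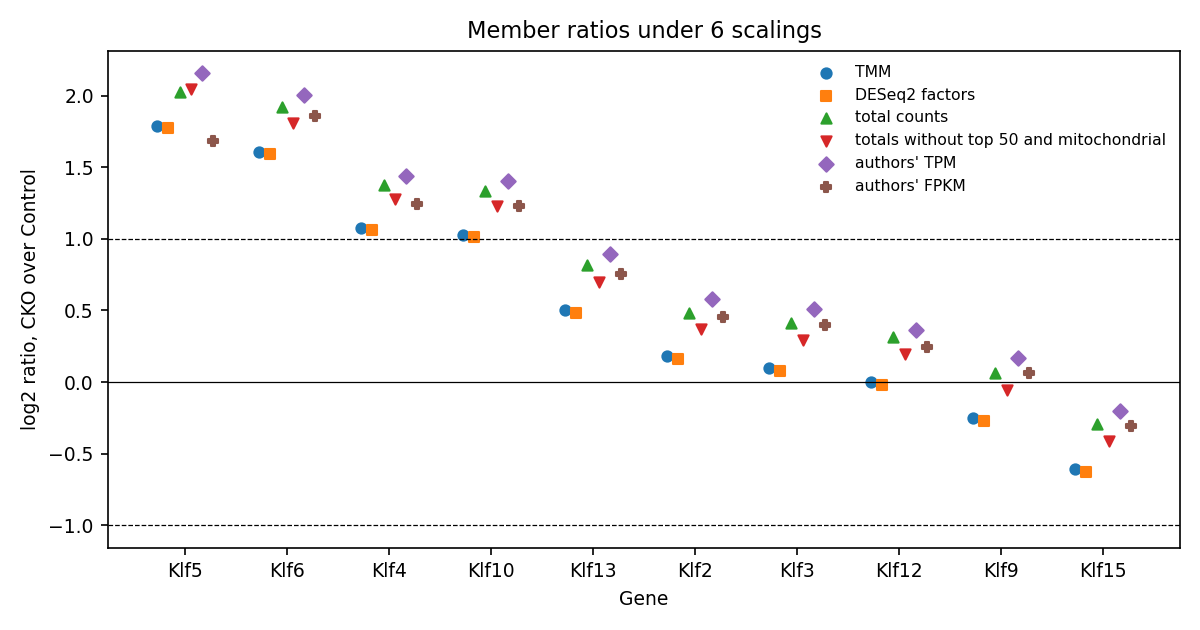
Log2 ratio of CKO over control for each member under TMM, DESeq2 factors, plain totals, totals after removal of mitochondrial genes and the 50 with most reads, and the authors' TPM and FPKM values, with dashed lines at 2-fold. The scaling moves most members by a similar step, so that Klf5, Klf6, Klf4 and Klf10 lie above the upper line throughout, Klf15 lies below 0 throughout, and Klf9 and Klf12 cross 0.

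Ordered by ratio, the members ran Klf5, Klf6, Klf4, Klf10, Klf13, Klf2, Klf3, Klf12, Klf9 and Klf15. Of the 9 neighbouring pairs in that order, 6 had a ratio of ratios whose interval left out 1. The 3 that could not be separated by counting error were Klf4 and Klf10 at 1.04 (0.855 to 1.27), Klf2 and Klf3 at 1.07 (0.905 to 1.26), and Klf3 and Klf12 at 1.07 (0.976 to 1.18). Over all 45 pairs of members, 41 intervals left out 1.

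Levels between genes were compared per transcript length, with the TPM values that the authors deposited. In the CKO library the order was Klf9 at 96.7 TPM, Klf15 at 67.9, Klf6 at 57.6, Klf3 at 41.8, Klf13 at 17.6, Klf10 at 15.4, Klf2 at 12.4, Klf4 at 12.1, Klf12 at 8.52 and Klf5 at 5.31. In the control library it was Klf9 at 86.0 TPM, Klf15 at 78.3, Klf3 at 29.2, Klf6 at 13.97, Klf13 at 9.23, Klf2 at 8.11, Klf12 at 6.52, Klf10 at 5.49, Klf4 at 4.14 and Klf5 at 0.804. Neighbours whose counting intervals overlapped were Klf2 and Klf4 in the CKO library, and Klf13 and Klf2 in the control library. Klf9 and Klf15 led both libraries, Klf5 was last in both, and Klf6 stood ahead of Klf3 in the CKO library only.

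The share of each member in the summed TPM of the 10 does not depend on the library scaling. Klf9, Klf15 and Klf3 together made 61.6% of the pool in the CKO library and 80.0% in the control library. Klf6 alone made 17.2% in the CKO library and 5.78% in the control library, and Klf15 made 20.3% in the CKO library and 32.4% in the control library. The 4 activating members made 26.1% of the CKO pool and 11.2% of the control pool. In CPM, the sum of the 10 was 594 in the CKO library and 558 in the control library, a ratio of 1.06, and without Klf6 it was 486 in the CKO library and 523 in the control library.

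**Figure D4:**
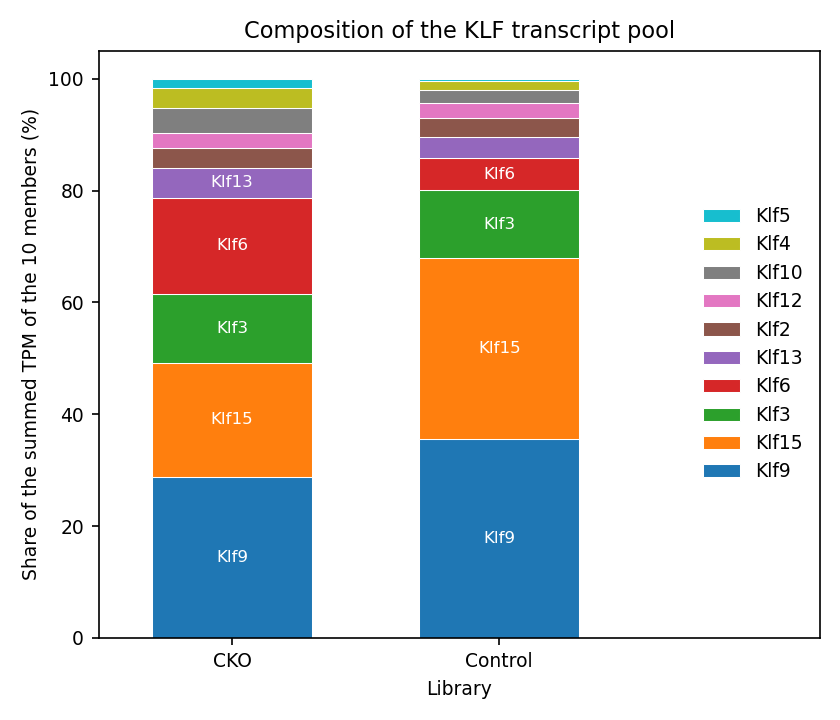
Share of each member (%) in the summed TPM of the 10 Kruppel-like factors, for the CKO library (left bar) and the control library (right bar), stacked from the most abundant member in the control library at the bottom. Klf9, Klf15 and Klf3 fill 61.6% of the CKO bar and 80.0% of the control bar, and the Klf6 segment is 17.2% of the CKO bar and 5.78% of the control bar.

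Other genes nearest to the 4 higher members by their levels in both libraries, measured as the distance in log2(CPM + 0.5) over these 2 libraries, were Akap12 and Serping1 for Klf6, Gfra2 and Nfam1 for Klf5, Prr15 and Epha2 for Klf4, and Blnk and Slc1a2 for Klf10. Their distances ran from 0.0147 for Gfra2 to 0.0619 for Serping1. Akap12 had 111 CPM in the CKO library and 35.4 CPM in the control library, beside 108 CPM (CKO) and 35.04 CPM (control) for Klf6.

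Of the 7 family genes outside the 10, 4 were expressed, with log2 ratios of 1.48 for Klf11, 1.16 for Klf8, 0.67 for Klf7 and 0.07 for Klf16. Klf8 passed the expression minimum through the CKO library only. Of 6 expressed genes of the related SP family, none (0) was 2-fold or more higher and 1 was 2-fold or more lower. That one was Sp5, a target of Wnt signalling, with 8.88 CPM in the CKO library and 20.3 CPM in the control library. Sp1, the general GC-box factor and the most abundant of them, had 85.7 CPM in the CKO library and 78.1 CPM in the control library. The SP median was 0.15, and the Sp5 log2 ratio of -1.15 was no longer past 2-fold when total counts set the scale.

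Genes of the proteins that act with Kruppel-like factors stayed within 2-fold. Among 10 corepressors and coactivators none (0) was past 2-fold in either direction, with log2 ratios from -0.49 for the acetyltransferase gene Kat2b to 0.20 for the CtBP gene Ctbp2. Their median was -0.03 with TMM and 0.28 with total counts, where all expressed genes had 0.01 and 0.32. Of 4 ubiquitin ligases that act on these factors, none (0) was past 2-fold, and the most abundant was Wwp1, a ligase of Klf5 and Klf2, at 219 CPM in the CKO library and 309 CPM in the control library. Fbxw7, which also targets Klf5, had 17.12 CPM in the CKO library and 17.14 CPM in the control library.

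The kinase route that induces Klf2 and Klf4 in endothelium, from MEKK3 through ERK5 to MEF2 factors, had none (0) of 9 genes past 2-fold. Its largest log2 ratios were 0.63 for Mef2c and 0.57 for Mapk7, the ERK5 gene. Among 6 genes that Klf2 or Klf4 regulate in endothelial cells, 3 were at least 2-fold higher, beside 10.3% of all expressed genes. Edn1 and Adamts4, 2 of the 3, passed the expression minimum through the CKO library only and so had to differ. The 3 were Vcam1, an adhesion molecule that Klf2 represses there, at 98.6 CPM in the CKO library and 8.10 CPM in the control library, Edn1, the endothelin gene, also repressed by Klf2, at 6.95 CPM (CKO) and 0.930 CPM (control), and Adamts4 at 3.80 CPM (CKO) and 0.963 CPM (control). Thbd, the thrombomodulin gene that Klf2 induces, was 1.60-fold higher (1.46 to 1.75). All 6 had log2 ratios above 0, the lowest at 0.31, as did 7673 of the 15129 expressed genes. Whole kidney RNA does not show which cells these transcripts came from.

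Markers of the cell types in which these members act are given beside them. The 11 endothelial markers summed to 727 CPM in the CKO library and 738.5 CPM in the control library, none at 0 or past 2-fold, with a median log2 ratio of 0.06. That sum was 0.984 of the control value, and Klf4 was 2.18-fold and Klf2 1.14-fold higher. From which cells the Klf4 and Klf2 transcripts came was not tested. The 8 podocyte markers summed to 463 CPM in the CKO library and 444 CPM in the control library, and none (0) was past 2-fold. The 9 collecting duct markers, given beside Klf5, summed to 465 CPM in the CKO library and 319 CPM in the control library. Of these, 2 were at least 2-fold higher. They were Aqp2, the vasopressin-regulated water channel gene, at 2.05-fold and Elf5, which passed the minimum through the CKO library only, at 6.86-fold. All 9 had log2 ratios above 0, as did 7673 of the 15129 expressed genes. The 4 thick ascending limb markers summed to 3025 CPM in the CKO library and 2094 CPM in the control library. That sum ratio was 1.44, beside 1.46 for the collecting duct, with 3 of the 4 above 0 and none (0) past 2-fold.

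Macrophage markers summed to 302 CPM in the CKO library and 71.6 CPM in the control library, with 7 of 8 at least 2-fold higher and none at 0. Lyz2, which encodes the myeloid lysozyme, had 93.8 CPM in the CKO library and 5.18 CPM in the control library, and Csf1r, the receptor for the growth factor of macrophages, had 85.8 CPM (CKO) and 46.96 CPM (control). Klf2, Klf4 and Klf6 are all expressed in macrophages. The 7 fibroblast markers summed to 546 CPM in the CKO library and 227 CPM in the control library, with 5 at least 2-fold higher, 1 of which passed the minimum through the CKO library only. The 7 T and NK cell markers summed to 11.5 CPM in the CKO library and 2.69 CPM in the control library, with 1 of them at 0 in the control library. The part of these cell types in the ratios of Klf4, Klf5, Klf6 and Klf10 was not tested.

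Signals that induce the members were described in the same way. The immediate early list had 19 expressed genes, and 14 of them were 2-fold or more above the control library and none (0) below, with a median of 1.56. Of the 14, 3 passed the expression minimum through the CKO library only, and the other 11 had 1 CPM or more in the control library. Klf6, Klf4 and Klf10, which can be induced with them, had 1.61, 1.08 and 1.03, and Klf2 had 0.18. Handling and the time from death to freezing also act on this list, and their part was not tested. Of 15 TGF-beta response genes, given beside Klf10, 3 were at least 2-fold higher, among them Tgfbi, a secreted matrix protein gene, at 5.08-fold and Tgif1, a SMAD corepressor gene, at 2.08-fold, with a list median of 0.45.

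Glucocorticoid response genes, given beside Klf9 and Klf15, had members in each direction: 3 of 10 were at least 2-fold higher and none (0) at least 2-fold lower. Fkbp5, an immunophilin gene that glucocorticoids induce, was at 64.7 CPM in the CKO library and 129 CPM in the control library, a ratio of 0.5001 (0.476 to 0.525) and a log2 ratio of -0.99, while Cebpd was 4.91-fold, Per1 2.59-fold and Mt2 2.40-fold higher. Errfi1, the most abundant of the list, had a ratio of 0.577. Of 17 clock genes, 5 were at least 2-fold higher and 2 were at least 2-fold lower. Arntl, the BMAL1 gene, was at 6.06 CPM in the CKO library and 20.2 CPM in the control library, Dbp, a clock output factor, at 85.96 CPM (CKO) and 21.5 CPM (control), and Ciart, a repressor within the clock, at 9.30 CPM (CKO) and 1.20 CPM (control). Klf9, Klf10 and Klf15 follow the clock in other tissues, and the hour of collection could not be compared here.

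Enzymes of branched-chain amino acid breakdown, a pathway that Klf15 induces in muscle and that Klf6 is reported to repress in the mouse proximal tubule, were lower in the CKO library as a list. Of 25 expressed genes, 23 had log2 ratios below 0 with TMM, 19 with total counts and 16 with the authors' TPM values. Over all expressed genes, 7456 of 15129, 3140 of 15219 and 2375 of 15408 were below 0 under these scalings. The list median was -0.54, -0.23 and -0.10, against 0.01, 0.32 and 0.40 for all expressed genes. A single gene of the list (1) was at least 2-fold lower with TMM. It was Acat1, the acetoacetyl-CoA thiolase gene, at 469 CPM in the CKO library and 960 CPM in the control library. Aldh6a1, the most abundant, had 692 CPM in the CKO library and 1260 CPM in the control library. Ivd had 179 CPM (CKO) and 349.6 CPM (control), and Hibadh 219.5 CPM (CKO) and 384 CPM (control). The list sum was 3483 CPM in the CKO library and 5724 CPM in the control library, a ratio of 0.608. The sum of the proximal tubule markers had a ratio of 0.586, with single markers from 0.441 to 1.19. The part of the proximal tubule in the list sum was not tested.

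**Figure D5:**
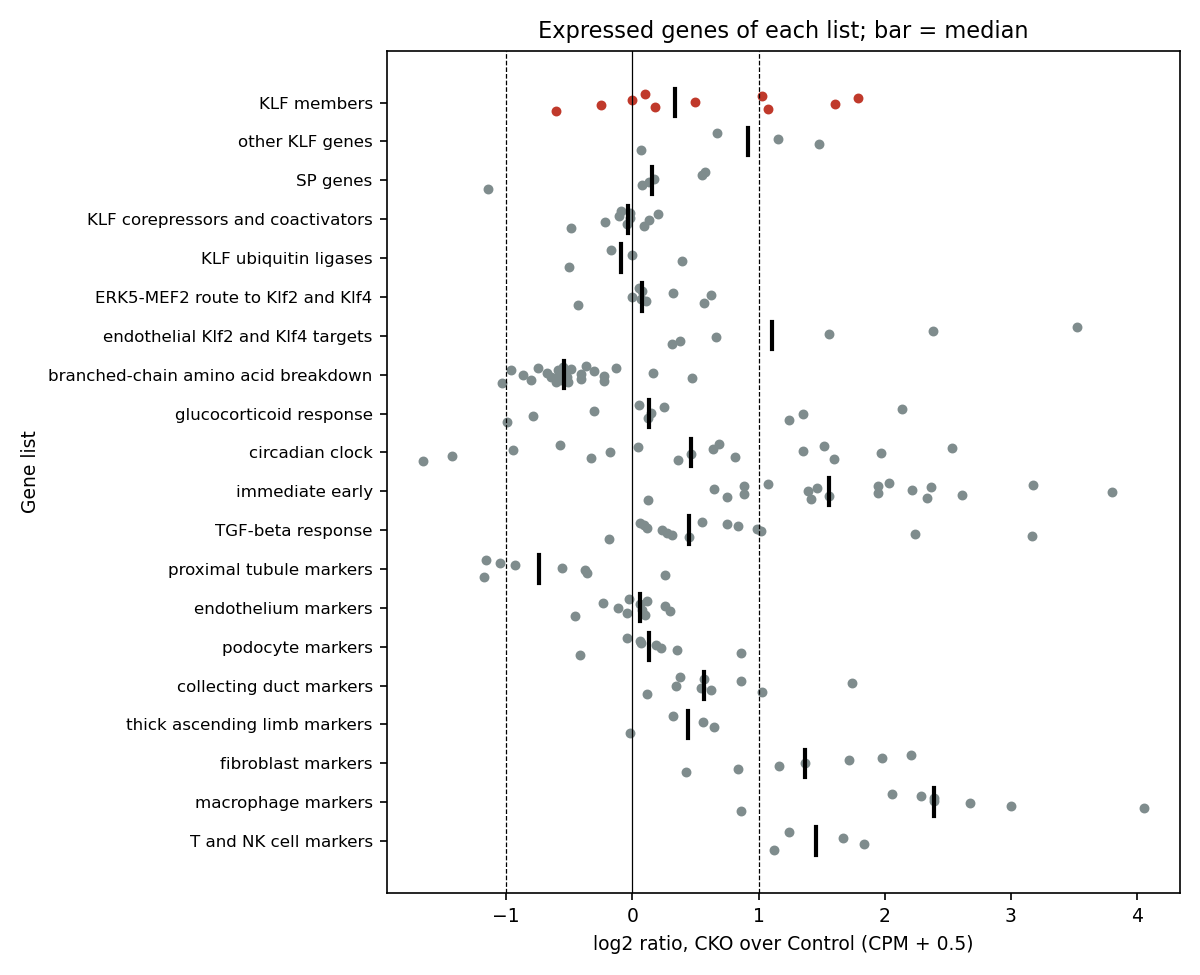
Log2 ratio of CKO over control (CPM + 0.5) for every expressed gene of the members (red) and of each gene list (grey), with a black bar at the list median and dashed lines at 2-fold. The members spread from -0.61 to 1.79, corepressors and endothelial markers stay within 2-fold, macrophage, fibroblast and immediate early genes lie mostly to the right, and proximal tubule and branched-chain amino acid genes mostly to the left.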

How the data were processed

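RNA from whole kidneys was sequenced as 1 CKO and 1 control library. Per the labels' protocols, a TruSeq stranded mRNA kit was used. Per the submitters' processing notes, the tools were STAR 2.7.3a, HTSeq, Cufflinks 2.2.1, FastQC, DESeq2 and edgeR with mm10, in no stated order. The authors deposited whole-number read counts, FPKM and TPM values, per the file headers, and a normalized signal table, which the authors made with counts divided by 1 constant per library (42.6 for CKO, 30.1 for control, in units of 1e6 reads).

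Counts were scaled by TMM (edgeR 4.0.16, R 4.3.3), which gave factors of 1.12 for CKO and 0.896 for control. Other steps used scipy 1.17.1, pandas 2.3.3 and numpy 2.4.6 under Python 3.11.15. Log2 ratios use CPM + 0.5, and expressed genes have 1 CPM or more in either library. Ratios of ratios carry Wald 95% intervals. The members and lists were chosen with earlier results of these data known. Named genes were all members, every expressed gene of lists with 5 or fewer, otherwise the 4 with the largest ratios and the most abundant, and the 2 genes nearest to each member past 2-fold. One (1) gene that this rule selects is not reported here. Other genes are named as the nearest neighbours on the chromosome. On simulated counts over 45777 genes, 100 of 100 genes set 4-fold higher and 100 of 100 set 4-fold lower passed 2-fold, as did none (0) of 14636 unchanged ones. The changed genes were drawn from genes with more reads in total than Klf5. The simulation held counting error only, without spread between animals, so it gives no rate of false calls for the real libraries. Gene coordinates are RefSeq's for GRCm38.p6, the assembly of mm10. Alternatives covered the scaling, pseudocount, expression minimum and fold limit.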

Additional observations from a re-analysis of the deposited data

How the results depend on the processing

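With 1 library per group, no library can be left out and the intervals cover counting error only. No paired analysis was possible because each group has 1 library. The number of members at least 2-fold higher was 4 under DESeq2 size factors, both total-count scalings, TPM and FPKM. Both total-count scalings and TPM shift ratios upward, so they could hardly have lowered it. Among all expressed genes, the share at least 2-fold higher was 10.3% with TMM and 9.95% with DESeq2 factors. That share was 15.7% and 14.6% with the total-count scalings, 17.0% with TPM and 10.8% with FPKM. The number of members was also 4 with a pseudocount of 0.1 CPM, no minimum and the authors' normalized table, settings that could not have lowered it. A smaller pseudocount widens ratios, all members pass the minimum already, and the authors' normalized table closely repeats the TMM scaling. With a minimum of 10 CPM, which leaves out Klf5, the number was 3 of 9, beside 5.62% of all expressed genes. It was 2 (Klf5 and Klf6) with a pseudocount of 2 CPM, beside 5.45% of all expressed genes. The number was also 2 when the whole counting interval had to pass 2-fold. With a 1.5-fold limit, 1 member (Klf15) was lower. The median log2 ratio of the members, 0.34, was 0.32 with DESeq2 factors, 0.65 with total counts, 0.53 with totals after removal of mitochondrial genes and the 50 with most reads, 0.35 and 0.32 with pseudocounts of 0.1 and 2 CPM, 0.18 with the minimum of 10 CPM, 0.74 with TPM and 0.61 with FPKM values. Relative to the median of all expressed genes it was 0.33 with TMM, 0.33 with total counts and 0.34 with TPM. The difference was smaller with a pseudocount of 2 CPM (0.31), no minimum (0.27) and the minimum of 10 CPM (0.26). Scaling moved that overall median from 0.01 to 0.32 (total counts) and 0.40 (TPM), and the share of higher genes among all past 2-fold from 86.1% to 95.9% and 94.95%. Klf12 ran from -0.02 to 0.36 and Klf9 from -0.27 to 0.17, both through 0.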
